A study of Solanum lycopersicum with 12 samples.

Results

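Chlorophyll a/b-binding antenna proteins were followed as transcripts in tomato (Solanum lycopersicum) leaf and root. The family was taken from a list of 31 tomato locus identifiers given as Lhca and Lhcb genes, matched to the rows of the expression table before the version suffix. Of these, 18 were among the 35976 loci of the table, and the other 13 are not analysed here. One of the 18, Solyc01g105030.3, was listed at 0 in all 12 libraries, so the results below rest on 17 loci. The identifiers place them on chromosomes 1, 3, 5, 6, 7, 8, 9, 10 and 12.

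Antenna proteins are nuclear-encoded, imported into the chloroplast, and bind chlorophyll a and b in the thylakoid membrane, where they pass light energy to the reaction centres. Lhcb proteins serve photosystem II, most of them as trimers of the major complex and a few as single linker proteins next to the core. Lhca proteins form the belt around photosystem I. In Arabidopsis their genes are a classic output of light signalling and of the circadian clock, with transcript highest in the day. The files do not pair identifiers with gene names, and no listed identifier was found in the RefSeq gene table, so single loci are named here by identifier and not assigned to one photosystem.

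Every plant was wild type, was irrigated with 50 mM NaCl (5.8 dS per m) and was sampled when 127 days old, 2 h after the light period. Treated plants had received a foliar spray of PSI-475, a biostimulant, at 2.5 mL per L when 65 days old and a repeat spray after 27 days of saline water, which started 1 day after the first. Untreated plants were sprayed with water. Young leaf and root were sequenced in 3 libraries each per spray, which gave 4 groups. The labels do not say whether replicates were separate plants, so each p-value reflects variation among the sequenced libraries only, part of which could be technical.

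Levels are FPKM, fragments per kilobase of locus scaled to library depth, as the authors deposited them. Library depth, recovered from the digits of the values, was 18190465 to 22993130 fragments in leaf and 17108347 to 20595008 in root. Fragments at the loci of the table made up at least 99.99% of these totals in every library. The totals are thus fragments counted at loci, and shares of all fragments below refer to them. The antenna loci held 50 to 62966 fragments each per leaf library. In root they held 0 to 335, so root values carry far more counting error. Their recovered lengths ran from 645 to 3856 bases. Antenna genes occur as near-identical tandem copies, and how the counting treated fragments shared by copies is not given in the sources used here. The level of any 1 copy is therefore uncertain.

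Untreated leaf and root were compared first, as a check of the tissue labels. Of the 17 loci, 7 averaged under 1 FPKM over the 6 root libraries, treated ones included, and entered this test through their leaf values. For them a lower level in root was largely set beforehand. In untreated root alone Solyc01g105050.3 was also under 1 FPKM, at 0.972. All 17 loci were lower in root than in leaf, with log2 differences from -1.85 to -8.49 on the log2(FPKM + 1) scale and a median of -5.45 (limma, largest adjusted p = 1.11e-07). The value of -1.85, the median and the largest adjusted p all belong to loci among the 7 that entered through leaf. Among all 19324 loci tested, 48.1% were lower in root, with a median log2 difference of -0.20, and 33.1% were higher. With median-of-ratios scaling, which centres each library on its typical locus, 40.7% were lower in root and 39.9% higher. In bulk tissue, fewer cells of a type and less RNA per cell cannot be told apart. The summed level of the antenna loci was 4945 ± 415 FPKM in untreated leaf and 34.5 ± 3.28 FPKM in untreated root (SD, n = 3). As a part of all fragments, these sums were 0.591% ± 0.0492 and 0.00390% ± 0.00036 (SD, n = 3). Other leaf and root markers could not be matched by name.

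In untreated leaf the family spanned a 359-fold range of level. Solyc09g014520.3 was the most abundant, at 927, 1026 and 1206 FPKM in replicates 1, 2 and 3. It was followed by Solyc10g007690.3 at 753, 855 and 873 FPKM, and by Solyc10g006230.3 at 682, 752 and 776 FPKM. The libraries of the first did not overlap with those of the second, while those of Solyc10g007690.3 and Solyc10g006230.3 did. Next came Solyc07g047850.3 at 651, 686 and 680 FPKM and Solyc12g011450.2 at 393, 444 and 506 FPKM. These 5 loci made up most of the antenna sum, with shares of 21.2%, 16.7%, 14.9%, 13.6% and 9.03%. At the other end, Solyc06g069730.3 reached 2.54, 3.56 and 2.71 FPKM. In the order of means, 6 of the 16 pairs of adjacent loci had overlapping libraries in untreated leaf, and 4 did in treated leaf.

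Leaf was then asked how the spray changed antenna transcript under salinity. Of the 17 loci tested, 16 rose in treated leaf and none fell (limma on log2(FPKM + 1), Benjamini-Hochberg adjusted p under 0.05, adjusted over 18405 loci). Across all tested loci 13.5% rose and 18.8% fell, or 16.1% and 12.4% with median-of-ratios scaling. The median log2 change of the antenna loci was 2.04, against -0.09 for all loci. Groups did not overlap for the same 16 loci, against 18.7% of all loci that were higher without overlap and 29.2% that were lower without overlap.

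The summed antenna level rose from 4510, 4991 and 5335 FPKM in the untreated leaf libraries to 16942, 15064 and 15589 FPKM in the treated ones. Every treated library was thus above every untreated one, and the ratio of means was 3.21. The sum took 0.591% ± 0.0492 of all fragments in untreated leaf and 1.80% ± 0.111 in treated leaf (SD, n = 3). These sums are given without a test because the loci were chosen with earlier results of these data known.

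**Figure D1:**
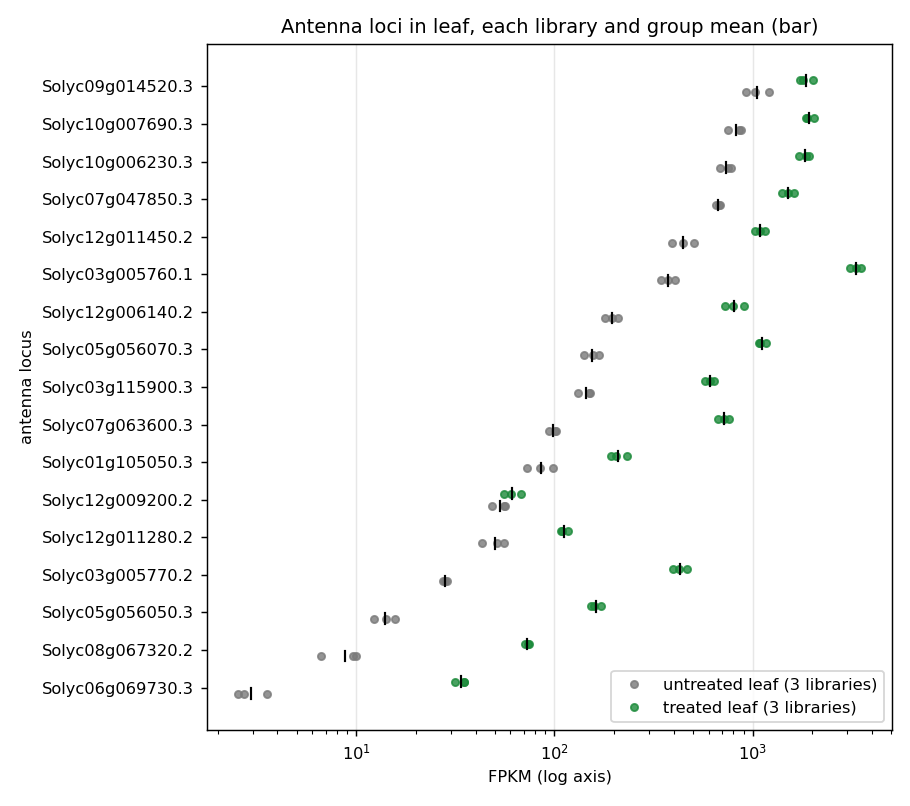
FPKM on a log axis of the 17 antenna loci in each of 3 untreated (grey) and 3 treated (green) leaf libraries, ordered by untreated level, with black bars for group means. Treated libraries lie to the right for every locus except Solyc12g009200.2, whose groups overlap, and Solyc03g005760.1 moves from the sixth to the first place.

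The largest leaf rise was that of Solyc03g005770.2, from 27.4, 28.1 and 28.8 FPKM to 468, 394 and 427 FPKM. Its means were 28.1 ± 0.679 and 430 ± 37.1 FPKM (SD, n = 3), a ratio of 15.3 and a log2 change of 3.89 (95% interval 3.71 to 4.06, limma adjusted p = 1.92e-07). It ranked 3 among the rises of all 18405 loci. Solyc05g056050.3 went from 14.1, 15.7 and 12.3 FPKM to 171, 154 and 159 FPKM, a log2 change of 3.44 (limma adjusted p = 7.72e-07). Solyc06g069730.3, the least abundant antenna locus in untreated leaf, rose to 34.8, 31.5 and 35.1 FPKM. The log2 change of 3.15 passed the test (limma adjusted p = 2.11e-06), and its ratio of means was 11.5, since the added 1 FPKM understates the change of low loci. For all 3 loci the treated libraries were far above the untreated ones, with no overlap.

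Solyc03g005760.1 joined a high untreated level to a large rise. It stood at 344, 374 and 404 FPKM in untreated leaf and at 3537, 3110 and 3317 FPKM in treated leaf, a log2 change of 3.15 (95% interval 2.95 to 3.35, limma adjusted p = 7.72e-07). Among all 35976 loci its mean went from rank 206 to rank 8. In treated leaf it was the most abundant antenna locus, above the libraries of the next one, Solyc10g007690.3, at 2043, 1857 and 1881 FPKM.

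Rises of at least 4-fold on the log2(FPKM + 1) scale were called for 9 antenna loci, out of 67 loci in the whole table (0.364% of those tested). Rises of at least 8-fold were called for 4 of them, out of 14 in the table (0.0761%). Beside the loci already given, this group held Solyc07g063600.3, which rose from 98.9 ± 4.40 to 715 ± 45.6 FPKM, and Solyc05g056070.3, which rose from 155 ± 13.3 to 1116 ± 50.3 FPKM (SD, n = 3). Solyc08g067320.2 rose 8.33-fold, Solyc03g115900.3 4.23-fold and Solyc12g006140.2 4.15-fold in means. These 9 loci sit on chromosomes 3, 5, 6, 7, 8 and 12.

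The rise was smaller for the loci that were most abundant before treatment. The 4 loci whose untreated leaf mean was 500 FPKM or more rose by 1.76-fold to 2.49-fold, with log2 changes from 0.82 to 1.32. The 5 loci between 100 and 500 FPKM rose by 2.43-fold to 8.89-fold. Among the 8 loci under 100 FPKM the ratio of means ran from 1.15 to 15.3. Across the 17 loci the untreated level and the log2 change had r = -0.552 and rho = -0.537. This is a description across loci that share the same libraries, and the untreated level enters both measures. The range of means narrowed from 359-fold in untreated leaf to 98.2-fold in treated leaf.

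Solyc09g014520.3, first in untreated leaf, had the smallest called rise, to 2016, 1741 and 1799 FPKM. Its log2 change was 0.82 (95% interval 0.57 to 1.07, limma adjusted p = 0.00114). The exception to the rise was Solyc12g009200.2, at 48.5, 56.2 and 55.5 FPKM in untreated leaf and 67.4, 55.5 and 60.7 FPKM in treated leaf. Its log2 change of 0.19 (95% interval -0.02 to 0.41) did not pass the test (limma adjusted p = 0.152), and its groups overlapped. The upper bound of 0.41 lay below the smallest called rise.

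**Figure D2:**
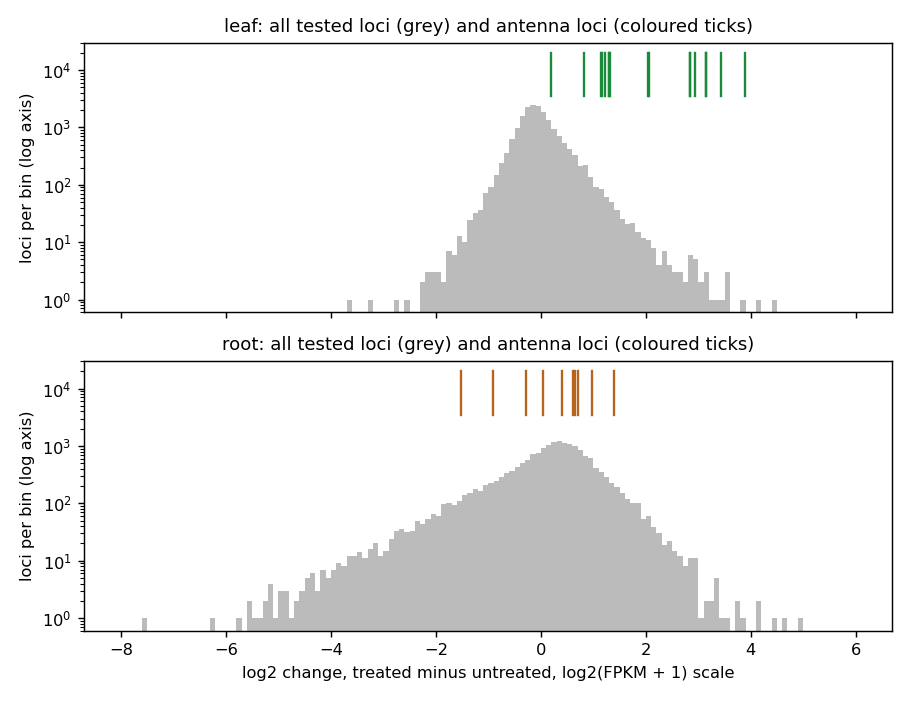
Number of loci per bin of log2 change (grey, log axis) over all loci tested in leaf (upper) and root (lower), with a coloured tick for each antenna locus tested. In leaf the ticks run from 0.19 to 3.89, all to the right of the median of -0.09, while in root they run from -1.53 to 1.39 on both sides of the median of 0.28.

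Because the loci rose by unequal amounts, the make-up of antenna transcript shifted in leaf. Solyc03g005760.1 held 7.56% ± 0.0657 of the summed antenna FPKM in untreated leaf and 20.9% ± 0.321 in treated leaf (SD, n = 3). Solyc05g056070.3 went from 3.14% ± 0.00468 to 7.04% ± 0.126, and Solyc07g063600.3 from 2.00% ± 0.0877 to 4.51% ± 0.0874 (SD, n = 3). In return, Solyc09g014520.3 went from 21.2% ± 1.18 to 11.7% ± 0.204 and Solyc10g007690.3 from 16.7% ± 0.389 to 12.1% ± 0.156 (SD, n = 3). None of these 5 shares overlapped between sprays. The shares are over the loci in the table, so the 13 listed identifiers not analysed here are left out of the sum.

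In this naming scheme, identifiers with close numbers mark loci that lie near each other. Solyc03g005760.1 and Solyc03g005770.2 are such a pair, and both rose in leaf. The first was 13.3 ± 0.751 times the second in untreated leaf and 7.74 ± 0.170 times in treated leaf (SD, n = 3), without overlap. Solyc05g056070.3 and Solyc05g056050.3 form the other pair. Their ratio was 11.2 ± 2.10 in untreated leaf and 6.92 ± 0.103 in treated leaf (SD, n = 3), again without overlap. In both pairs the less abundant locus thus gained relative to its neighbour. On chromosome 1, Solyc01g105050.3 rose from 85.4 ± 13.1 to 210 ± 19.6 FPKM (SD, n = 3), while its listed neighbour Solyc01g105030.3 was at 0 throughout.

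**Figure D3:**
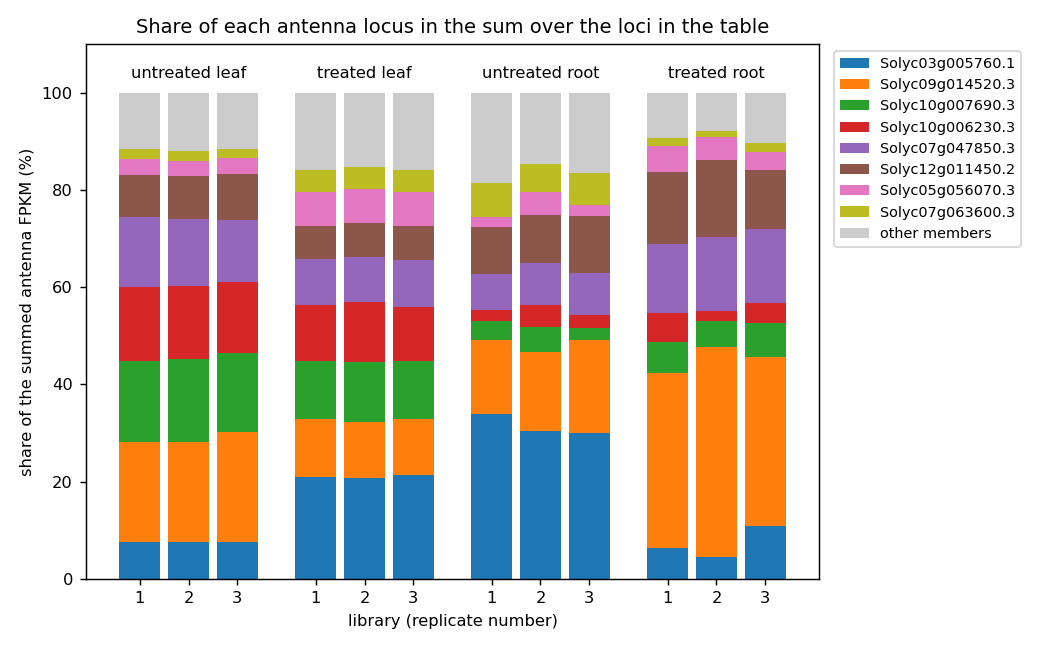
Share of the summed antenna FPKM in percent held by 8 antenna loci (colours) and by the other members together (grey), stacked to 100% in each of the 12 libraries. Solyc03g005760.1 grows from 7.56% to 20.9% in leaf and shrinks from 31.4% to 7.22% in root, where Solyc09g014520.3 takes 38.0% after treatment.

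Root was asked whether antenna transcript below ground also differed after the leaf spray. Only 10 of the 18 loci reached the mean of 1 FPKM over the 6 root libraries that the test required. Of these, 5 rose, 2 fell and 3 were not called (limma, adjusted p under 0.05, adjusted over 18277 loci). Over all tested root loci 52% rose and 24.5% fell, so these counts stand near the background. With median-of-ratios scaling 3 antenna loci rose and 3 fell, against 36.1% and 34.8% of all loci. This scaling took the median log2 change of all root loci from 0.276 to 0.022, and called root changes are therefore also given relative to the median.

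Solyc09g014520.3 had the largest root rise, from 4.97, 6.24 and 6.19 FPKM to 17.0, 15.7 and 17.5 FPKM. Its log2 change was 1.39 (95% interval 1.17 to 1.60, limma adjusted p = 2.81e-06), or 1.11 relative to the median locus. Solyc07g047850.3 went from 2.44, 3.28 and 2.80 FPKM to 6.66, 5.48 and 7.65 FPKM, a log2 change of 0.98 (limma adjusted p = 0.000191), or 0.70 relative to the median locus. Solyc12g011450.2 went from 3.18, 3.78 and 3.82 FPKM to 7.10, 5.73 and 6.03 FPKM, a log2 change of 0.66 (limma adjusted p = 0.000504), or 0.39 relative to the median locus. For these 3 loci the groups did not overlap, and the rise also passed with median-of-ratios scaling. Among all root loci, 53.6% were higher without overlap.

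The other 2 rises rest on few fragments. Solyc10g007690.3 stood at 1.29, 1.96 and 0.809 FPKM in untreated root and at 3.09, 1.93 and 3.50 FPKM in treated root, with a log2 change of 0.71 (limma adjusted p = 0.0170), or 0.44 relative to the median locus. Solyc05g056070.3 stood at 0.636, 1.77 and 0.716 FPKM and at 2.51, 1.76 and 1.94 FPKM, with a log2 change of 0.62 (limma adjusted p = 0.0266), or 0.35 relative to the median locus. In both, treated replicate 2 lay just below untreated replicate 2, so the groups overlapped. Both calls were lost with median-of-ratios scaling (limma adjusted p = 0.0632 and 0.0932). For Solyc10g007690.3 the adjusted p was 0.0549 without untreated root replicate 3, 0.0524 without treated root replicate 1 and 0.0618 without treated root replicate 3. For Solyc05g056070.3 it was 0.0887 without untreated root replicate 1, 0.0844 without untreated root replicate 3, 0.0859 without treated root replicate 1 and 0.0525 without treated root replicate 3.

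Solyc03g005760.1, the most abundant antenna locus of untreated root, fell there. It stood at 11.1, 11.6 and 9.77 FPKM in untreated root and at 3.00, 1.60 and 5.50 FPKM in treated root, with no overlap. Its log2 change was -1.53 (95% interval -2.19 to -0.88, limma adjusted p = 0.00124), or -1.81 relative to the median locus. The treated libraries were wide apart, with 43, 22 and 91 fragments. Solyc07g063600.3 fell as well, from 2.27, 2.26 and 2.14 FPKM to 0.794, 0.441 and 0.918 FPKM. Its log2 change was -0.92 (95% interval -1.23 to -0.60, limma adjusted p = 0.000351), or -1.19 relative to the median locus, and its groups did not overlap either. Among all root loci, 25.6% were lower without overlap.

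The 3 loci tested but not called were Solyc10g006230.3, with a log2 change of 0.41 and a limma adjusted p of 0.239, Solyc01g105050.3, with 0.04 and 0.741, and Solyc12g011280.2, with -0.28 and 0.0730. Solyc12g011280.2 was nonetheless without overlap, at 1.53, 1.93 and 1.61 FPKM against 1.10, 1.47 and 1.09 FPKM. With median-of-ratios scaling its log2 change of -0.45 was called (limma adjusted p = 0.0116). Its fall was also called without the mean-variance trend, with all 12 libraries in the fit and without treated root replicate 2 (limma adjusted p = 0.0307, 0.0272 and 0.0431). Without treated root replicate 2 the log2 change of Solyc10g006230.3 was 0.74 (limma adjusted p = 0.0215).

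Another 7 loci stayed under the filter in root. When no filter was applied, 2 of these 7 were called lower in treated root and none higher. Among all 26608 loci then tested, 5309 were lower and 10083 higher, and 2 of 7 is too few to set apart from that. Solyc08g067320.2 had 15, 4 and 13 fragments in untreated root and 2, 1 and 0 in treated root, with a log2 change of -0.79 (limma adjusted p = 0.0133). Solyc03g005770.2 had 25, 24 and 18 fragments and then 14, 3 and 11, with a log2 change of -0.46 (limma adjusted p = 0.0193). The remaining 5, Solyc12g006140.2, Solyc12g009200.2, Solyc03g115900.3, Solyc06g069730.3 and Solyc05g056050.3, were not called, with limma adjusted p from 0.228 to 0.99. Their log2 changes ran from -0.24 for Solyc12g009200.2 to 0.46 for Solyc12g006140.2, the latter as large as the called fall of Solyc03g005770.2. At such counts differences can be missed, and the size that could be detected was not computed.

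**Figure D4:**
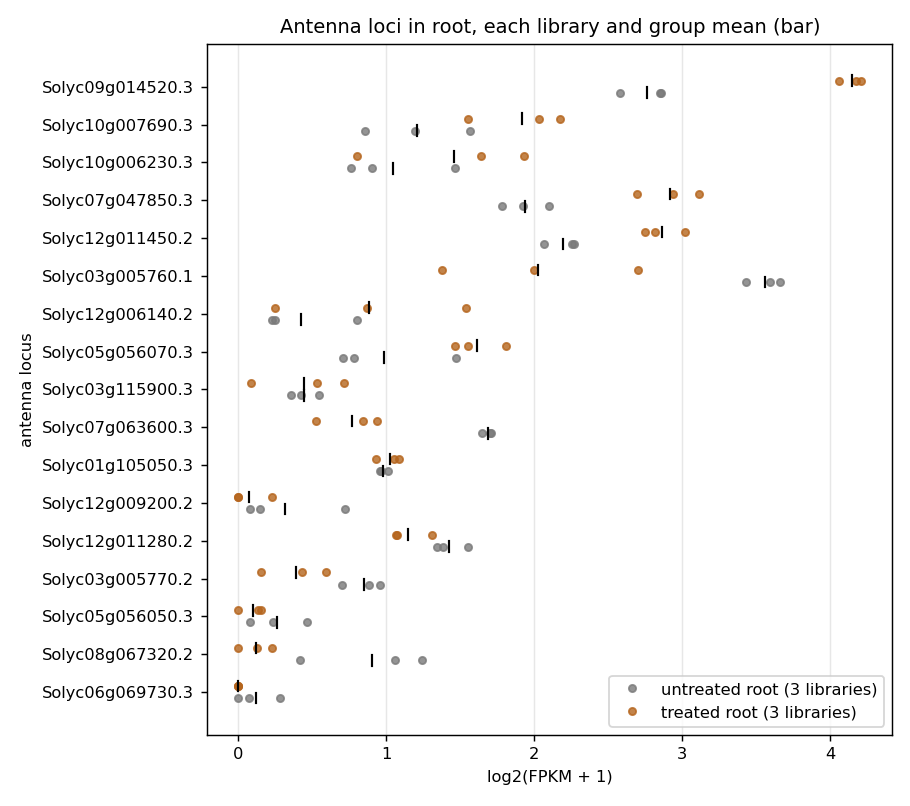
Values of log2(FPKM + 1) of the 17 antenna loci in each of 3 untreated (grey) and 3 treated (brown) root libraries, in the order of untreated leaf, with black bars for group means. Solyc09g014520.3, Solyc07g047850.3 and Solyc12g011450.2 lie higher after treatment, whereas Solyc03g005760.1 and Solyc07g063600.3 lie lower.

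The summed antenna level in root was 32.6, 38.2 and 32.5 FPKM without and 47.4, 36.2 and 50.3 FPKM with treatment, and the groups overlapped. The ratio of means, 1.296, became 1.06 with median-of-ratios scaling and 1.37 as a share of the fragments. As that share, the groups did not overlap. It was 0.00365%, 0.00432% and 0.00373% without and 0.00573%, 0.00437% and 0.00598% with treatment. Whether the sum rose in root thus depends on the measure. The make-up of the sum differed as well. Solyc03g005760.1 held 31.4% ± 2.13 of the sum in untreated root and 7.22% ± 3.35 in treated root (SD, n = 3). Solyc09g014520.3 went from 16.9% ± 1.96 to 38.0% ± 4.65, and Solyc07g047850.3 from 8.23% ± 0.640 to 14.8% ± 0.643 (SD, n = 3). All 3 shares differed without overlap between the groups. In the order of means, 12 of 16 pairs of adjacent loci had overlapping libraries in untreated root and 14 of 16 in treated root, so most places in that order are not resolved.

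The interaction test compared the effect of the spray between the tissues, over all 12 libraries. Among the 10 loci also tested in root alone, the effect was lower in root at 7 and higher at 1, with 2 not called (limma, adjusted p under 0.05, adjusted over 19324 loci). The other 7 loci were under the filter in root and entered this fit through their leaf values. With root near 0, the differences of the 6 called lower take most of their size from the leaf rise. They are no comparison of measured effects in both tissues. At the locus not called, Solyc12g009200.2, the leaf change was 0.19 and the difference -0.43. Over all loci 20.8% were lower and 46.6% higher, or 30.3% and 29.3% with median-of-ratios scaling. Among the loci tested in both tissues, the widest gap was at Solyc03g005760.1, with a difference of log2 changes of -4.68 (95% interval -5.40 to -3.96, limma adjusted p = 1.31e-07). Solyc07g063600.3 followed at -3.76 (limma adjusted p = 5.14e-10). Both Solyc03g005760.1 and Solyc07g063600.3 were called in opposite directions in the 2 tissues, as rises in leaf and falls in root. All 10 loci tested in root alone were called as rises in leaf. The opposite calls are thus the root falls again, and 24.5% of all root loci fell. The share of all loci called in opposite directions was not computed.

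Solyc09g014520.3 was the 1 locus with the larger effect in root, by 0.57 (limma adjusted p = 0.00396). With median-of-ratios scaling this difference was 0.20 and not called (limma adjusted p = 0.289), so its direction relative to other loci was not resolved. For Solyc07g047850.3 the difference was -0.19 (95% interval -0.51 to 0.13, limma adjusted p = 0.269), which turned to 0.01 with a pseudocount of 0.1. With median-of-ratios scaling it was -0.53 and called (limma adjusted p = 0.012). The other differences not called were -0.51 for Solyc10g007690.3 (limma adjusted p = 0.0829) and -0.43 for Solyc12g009200.2 (limma adjusted p = 0.0949). Across the 10 loci tested in both tissues, leaf and root log2 changes had r = -0.71 and rho = -0.70. Over all 16272 loci tested in both tissues the values were -0.09 and -0.08. These are descriptions across loci counted in the same libraries, and 10 loci are few.

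**Figure D5:**
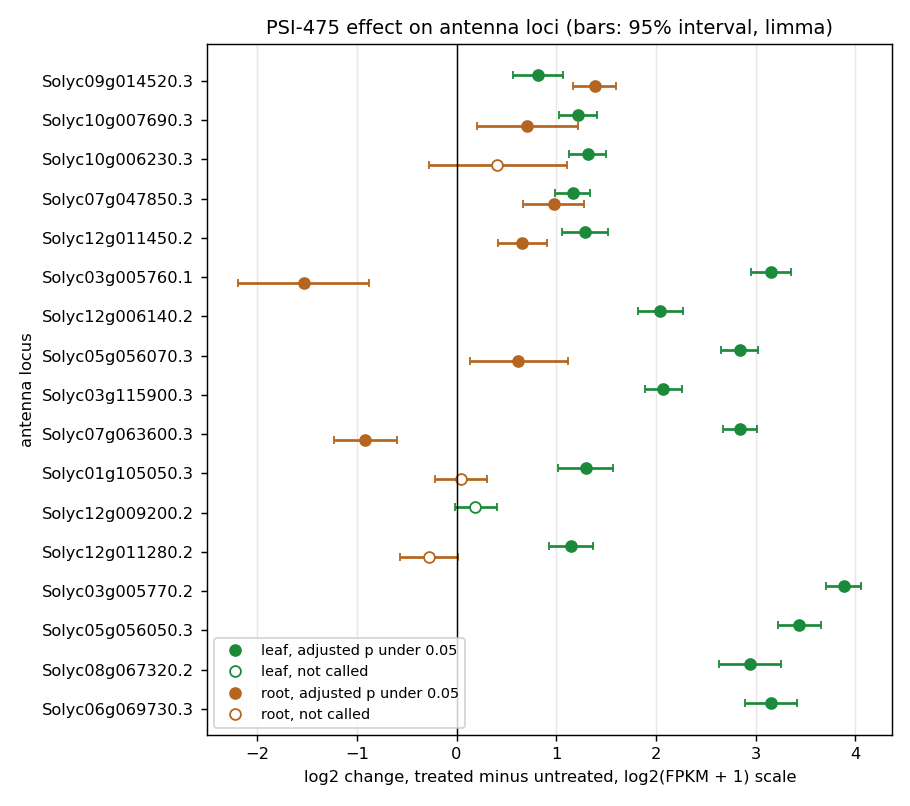
Log2 change between treated and untreated libraries on the log2(FPKM + 1) scale for each antenna locus in leaf (green) and root (brown), with 95% intervals from limma. Filled points have an adjusted p under 0.05, and the 7 loci without a brown point were under the filter in root. Leaf points lie to the right of 0, from 0.19 to 3.89, while root points spread from -1.53 to 1.39.

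In FPKM, the root mean as a percentage of the leaf mean was lower in treated plants at 15 of 17 loci and higher at Solyc09g014520.3 and Solyc07g047850.3. The share over all loci was not computed. Since 16 of these loci rose in leaf, the count largely restates the leaf rise and is no separate result. All 17 loci were lower in treated root than in treated leaf, with log2 differences from -5.12 to -9.67 and a median of -7.65 (limma, largest adjusted p = 1.02e-11), against 33.4% of all loci (37.9% with median-of-ratios scaling). The 7 loci under 1 FPKM over the 6 root libraries entered this test through their leaf values. For them a lower level in root was largely set beforehand. Of all loci, 44.9% were higher in treated root (37.6% with that scaling). The root mean as a percentage of the leaf mean had a median over loci of 0.803% in untreated and 0.121% in treated plants. It differed widely between loci in untreated plants, from 0.150% for Solyc10g006230.3 to 10.6% for Solyc08g067320.2. For Solyc03g005760.1 it was 2.89% without and 0.101% with treatment. For Solyc09g014520.3 it was 0.551% without and 0.904% with treatment, and for Solyc07g047850.3 it was 0.423% and 0.436%.

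Single libraries were the highest or lowest of their group at many antenna loci together. The same counts over all loci were not made, so this is not shown to be particular to the family. Untreated leaf replicate 1 was the lowest of its group at 16 of 17 loci. Treated leaf replicate 1 was the highest of its group at 15 loci and replicate 2 the lowest at 15. Treated root replicate 2 was the lowest of its group at 14 loci, counting Solyc12g009200.2, where it tied with replicate 3 at 0. In leaf, leaving out any 1 library kept 16 rises and no fall. In root, leaving out 1 library gave from 3 to 6 rises and from 2 to 3 falls, and the part of these libraries in the root results beyond this was not tested.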

How the data were processed

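RNA from 30 mg of ground leaf or root was sequenced in 12 libraries, per the labels' protocols. The authors deposited FPKM per locus. Tools listed in the submitters' processing notes are DESeq2, featureCounts and fastp, with no versions. Which aligner, build, annotation and strand option were used is not given in the sources used here. Columns were matched to samples by title.

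Library totals, lengths and whole fragments were recovered from the digits of the FPKM (tolerance 0.001 fragments). Any factor common to every library of a locus cannot be recovered this way. Values were log2(FPKM + 1). Loci averaging 1 FPKM or more over the libraries of a fit were tested with limma 3.58.1 in R 4.3.3, with a mean-variance trend, 2-sided, Benjamini-Hochberg adjusted, called under 0.05. The leaf and root fits used 6 libraries each, the interaction and the tissue comparisons on 12. The procedure was also run on simulated fragments, with changed loci drawn from those of at least 5 FPKM in untreated libraries. Most antenna loci were below that level in root, so the run does not bear on their root calls. Intervals cover the spread between libraries.

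The loci, the lists and the tests were chosen with earlier results of these data known. Loci were named by level (the 5 highest in untreated leaf, the 4 highest in untreated root), by change (up to 3 called rises and falls per tissue) and by opposite calls. The rule also took the most and least abundant locus of neighbourhoods of at least 4 listed loci, which applied on chromosome 3, where 2 of 4 were in the table. Solyc12g009200.2 and other loci given singly were added after their values were seen. Other photosynthesis genes were not evaluated, since 0 identifiers matched the RefSeq gene table (assembly SLM_r2.1). No sequence is shown, since none was paired with these identifiers. Alternatives varied the pseudocount, filter, scaling, test, trend, replicate block and libraries. Figures were drawn with matplotlib 3.10.9.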

Additional observations from a re-analysis of the deposited data

Results flagged for a closer look

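The effect of the spray differed between leaf and root by the interaction test (limma, adjusted p under 0.05) at 14 antenna loci, each given here as the root log2 change minus the leaf log2 change. Of these 14, 8 were also tested in root alone. Over all 19324 loci tested, 20.8% were lower and 46.6% higher by this test, so a difference as such was common. The difference was -4.68 for Solyc03g005760.1, -3.76 for Solyc07g063600.3, -2.21 for Solyc05g056070.3, -1.43 for Solyc12g011280.2 and -1.25 for Solyc01g105050.3, and these 5 calls held under every alternative run. The remaining 3 calls did not. Solyc10g006230.3, at -0.90, was lost under 9 alternatives, among them the replicate block (limma adjusted p = 0.0797). Solyc12g011450.2, at -0.62, was lost in limma-voom (limma adjusted p = 0.0712). Solyc09g014520.3, at 0.57, became 0.20 with median-of-ratios scaling (limma adjusted p = 0.289).

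The other 6 loci were under the filter in root, so their differences take most of their size from the leaf rise and depend on the scale. They were not all equal to that rise, which was 2.94 for Solyc08g067320.2 and 2.04 for Solyc12g006140.2. The difference was -4.34 for Solyc03g005770.2 (-5.38 in limma-voom), -3.73 for Solyc08g067320.2 (-6.13) and -3.60 for Solyc05g056050.3 (-4.76). It was -3.27 for Solyc06g069730.3 (-5.18), -2.07 for Solyc03g115900.3 (-2.39) and -1.59 for Solyc12g006140.2 (-0.85, no longer called).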

How the results depend on the processing

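The leaf result of 16 rises and no fall was the same under all alternatives run, including each library left out, the replicate block and median-of-ratios scaling. Both tissue comparisons kept 17 loci lower in root throughout. The root counts moved. With a mean of at least 5 FPKM only 2 antenna loci were tested, of which 1 rose and 1 fell. Without a filter 4 of 17 fell, against 5309 of all 26608 loci, and with median-of-ratios scaling 3 rose. Leaving out 1 library gave 3 to 6 rises and 2 to 3 falls in root. In the interaction test median-of-ratios scaling left 0 antenna loci higher in root and 16 lower, and 10 were lower in limma-voom, against 13 lower and 1 higher. Over all loci, the falls in leaf went from 3464 to 2279 with median-of-ratios scaling and ranged from 2022 to 3887 with 1 library left out (2095 without treated leaf replicate 1, 2022 without replicate 3), and the loci with a higher effect in root went from 9008 to 5674. Signs turned for Solyc01g105050.3 in root (-0.10 with median-of-ratios scaling) and for the interaction at Solyc07g047850.3 (0.01 with a pseudocount of 0.1, 0.05 in limma-voom). None of these 3 values was called, and their causes were not tested. With median-of-ratios scaling the interaction at Solyc07g047850.3 was -0.53 and called (limma adjusted p = 0.012). The interaction call at Solyc10g006230.3 was lost under 9 alternatives (limma adjusted p from 0.0529 to 0.306), at Solyc12g006140.2 with a pseudocount of 0.1 and in limma-voom (0.29 and 0.433), and at Solyc12g011450.2 in limma-voom (0.0712).

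Replicate numbers did not pair the libraries, with correlations of same-numbered deviations from -0.237 to 0.114 in leaf and from -0.00936 to 0.0426 in root. With the replicate block, 16 loci rose in leaf, 5 rose and 2 fell in root, and the interaction had 12 lower and 1 higher. The summed antenna ratio stayed within 3.05 to 3.40 in leaf and 1.06 to 1.42 in root under alternatives chosen after seeing the data. The fragment share of single loci was not run, since locus length cancels in their ratio. Depth limits the root results, with a median of 24 fragments per antenna locus and library, against 9796 in leaf.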

Other observations

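Loci that are not antenna genes but whose identifier numbers lie within 50 of one were looked at in the same fits, a choice made after the data had been seen. In leaf, 99 of 140 such neighbours were tested, of which 16 rose and 16 fell (16.2% each), with a median log2 change of -0.03. In root, 98 were tested, of which 54 rose (55.1%) and 27 fell (27.6%), with a median of 0.31. Both splits are near those of all loci.

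The neighbour with the largest leaf rise was Solyc03g005775.1, numbered just after Solyc03g005770.2 and with a recovered length of 243 bases. It had 0 to 3 fragments per library in untreated leaf and 40 to 51 in treated leaf, and its log2 change was 2.96 with an SE of 0.22. Its mean was 0.211 FPKM in untreated leaf and 8.26 FPKM in treated leaf, so it passed the filter only through the treated libraries. As it was also picked for its rise, no p-value is given. In root it had 2 to 8 fragments without and 1 to 4 with treatment. Whether fragments of the antenna locus beside it were counted there was not tested.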
